A study of Homo sapiens with 10 samples.

Results

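Gene levels in mock-transfected K562 cells were set against those in mock-transfected U-2 OS and SK-N-SH cells, gene by gene, with 1 library per line. These 3 libraries are part of 10 in the series, which was built to test PcTF, a synthetic fusion of the CBX8 chromodomain, a red fluorescent tag and an activation domain that is aimed at genes marked by trimethylated H3K27. K562 is a chronic myelogenous leukemia line that grows in suspension, U-2 OS is an adherent osteosarcoma line, and SK-N-SH is an adherent neuroblastoma line. Each is a single established line, so a difference between libraries is a difference between these lines and their cultures, not between tumor types. The mock cells of all 3 lines received vehicle only, which was Lipofectamine with PLUS reagent and OptiMEM, and no plasmid, and all were grown with Tet-free serum. K562 cells were kept in IMDM for up to 48 h after transfection and were pelleted before lysis. U-2 OS cells in McCoy's 5A and SK-N-SH cells in EMEM were kept for up to 96 h and lysed on the plate. Line, medium, time and lysis therefore cannot be told apart. A further library of each line came from cells transfected with the PcTF plasmid and handled in the same way. It did not enter the mock differences and calls, and its values are given for the lists and for some of the genes. It is not an independent second look, since the lists were chosen with earlier results of these data known. NUPR1 was flagged by comparing the calls of both sets.

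K562 cells are known for a stalled program of both red cell and platelet precursors. Red cell precursors are built by a small set of transcription factors, among them GATA1, TAL1 and KLF1, that switch on the globin chains, the membrane skeleton, the blood group proteins and the enzymes that make heme. K562 cells are driven by BCR-ABL1, a fused tyrosine kinase that feeds into STAT5, MYC and survival genes. U-2 OS and SK-N-SH are anchored to a plate through integrins and a secreted matrix, and SK-N-SH is kin to the sympathetic nervous system.

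The comparison covered 13812 of 23245 genes, those at 1 FPKM or more (FPKM counts the fragments of a gene, scaled by the length of its transcript and the depth of the library) in at least 1 of the 3 mock libraries. For each gene the difference is the log2 of mock K562 FPKM minus the mean log2 of mock U-2 OS and mock SK-N-SH FPKM, after 0.1 FPKM was added to every value. It was centered by subtracting 0.14, the median over the 8151 genes at 1 FPKM or more in all 3 libraries. The tables of the 3 lines were normalized separately, and this centering is all that sets them on a common level. A gene was called higher or lower at a centered difference of 2 or more, which is 4-fold. The K562 value, after centering, also had to lie beyond both other lines. Since centering lowers the K562 value, a gene at 0 in K562 and in 1 other line could pass as lower. By this rule 2251 genes (16.3% of those compared) were higher in mock K562 and 3866 (28.0%) were lower, and these shares are the background for each count below. Of the 3866 lower genes, 483 were such ties at 0 with 1 other line. With 1 library per line there is no replicate error and no test, so the values describe these libraries. The filter also shapes the counts: a gene that passed only through K562 had to lie above the other lines, and a gene that passed only through them had to lie below. The PcTF libraries gave 2224 higher genes (15.6% of 14253) and 3458 lower (24.3%), and 1264 genes were higher and 2625 lower in both sets of libraries. The shared genes are 56.2% of the higher genes of the mock set and 56.8% of those of the PcTF set, and 67.9% and 75.9% of the lower genes. Another 25 genes were higher in the mock set and lower in the PcTF set, and 25 the reverse.

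The depth, read from the smallest steps between low FPKM values, was near 4.67e+06 reads for mock K562, 4.87e+06 for mock U-2 OS and 5.19e+06 for mock SK-N-SH. The K562 library detected 13246 genes above 0, against 16089 in mock U-2 OS and 15460 in mock SK-N-SH. Of the genes compared, 1999 were listed at 0 in mock K562, against 693 in mock U-2 OS and 920 in mock SK-N-SH. The median difference over all compared genes was -0.36 in the mock set and -0.28 in the PcTF set.

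The K562 libraries also differed from the others in a way that followed transcript length and base composition. Among genes at 1 FPKM or more in all 3 mock libraries, the shortest 10% of transcripts (156 to 1218 bases) had a median difference of 1.66 and the longest 10% (7759 to 34626 bases) one of -0.83. The 10% with the lowest GC content stood at -1.47 and the 10% with the highest at 1.10. The same gradients were present in the PcTF libraries, from 1.43 to -0.69 over length and from -1.34 to 1.52 over GC content. Between mock U-2 OS and mock SK-N-SH they were small, from -0.22 to 0.11 over length and from 0.11 to -0.17 over GC content. Their cause was not tested. Medians of lists below are therefore also given against genes of like length and GC content, where the median of shared genes in the same of 5 bins of length and 5 bins of GC content is subtracted in place of the common 0.14. On that scale 1288 genes (9.95% of 12949) were higher in mock K562 and 3095 (23.9%) were lower.

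**Figure D1:**
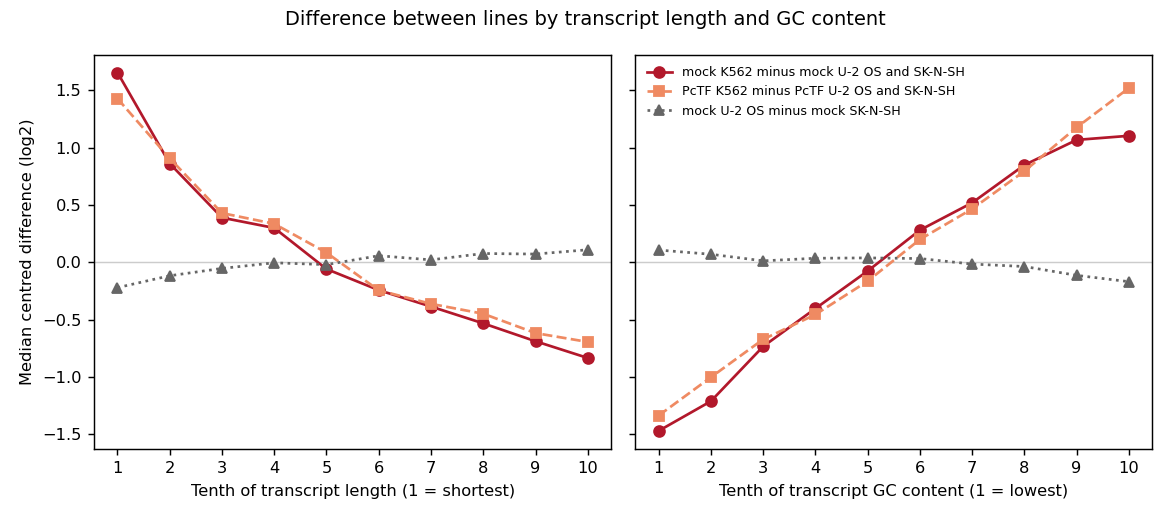
Median centered log2 difference (vertical axis) in 10 bins of transcript length (left) and of transcript GC content (right), for genes at 1 FPKM or more in all 3 mock libraries. K562 minus the other lines runs from 1.66 to -0.83 over length and from -1.47 to 1.10 over GC content in the mock libraries (filled circles), likewise in the PcTF libraries (squares), while U-2 OS minus SK-N-SH (triangles) stays near 0.

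**Figure D2:**
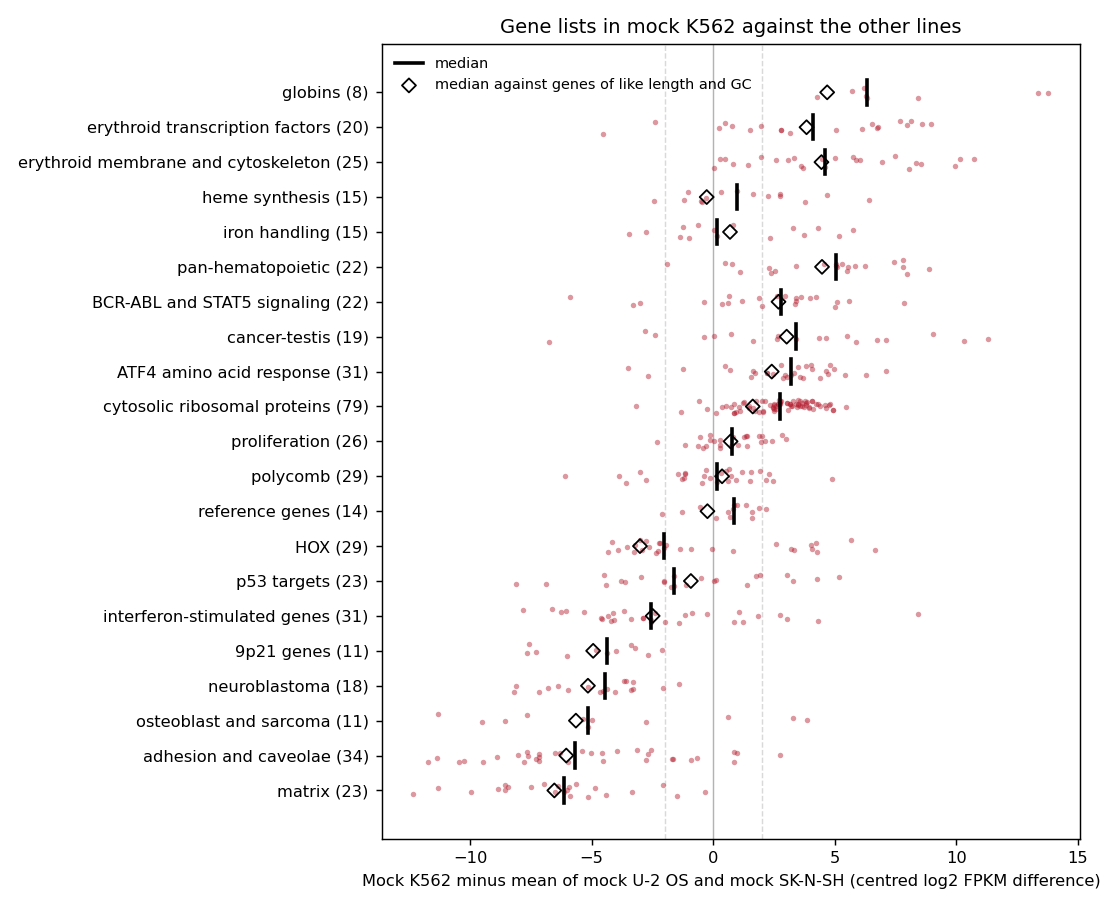
Centered log2 difference of mock K562 minus the mean of mock U-2 OS and mock SK-N-SH (horizontal axis) for the compared genes (points) of 21 gene lists, with the number of genes in parentheses. Bars are list medians, diamonds are medians against genes of like length and GC content, and dashed lines mark 4-fold; blood lists lie to the right and matrix, adhesion, neuronal and 9p21 lists to the left.

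Embryonic and fetal globins were abundant in mock K562 and at or near 0 in the other lines, HBE1 excepted. HBG2, a fetal beta-like chain, stood at 2912 FPKM in mock K562, against 0.540 in mock U-2 OS and 0 in mock SK-N-SH. HBE1, the embryonic beta-like chain, stood at 2694 FPKM, against 19.1 and 2.51, and HBG1, the other fetal chain, at 1567 FPKM, against 0 in both other lines. HBG1 and HBG2 are near-identical copies on chromosome 11 (5269502–5271087 and 5274421–5276011, hg19), so the split of reads between them is uncertain, but their sum is far above both other lines. The adult beta chain HBB was listed at 0 in all 3 mock libraries and at 0.959 FPKM in PcTF K562. The delta chain HBD stood at 4.50 FPKM in mock K562, against 0.359 and 0.

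The alpha-like chains were lower by a wide margin. HBZ, the embryonic alpha-like chain, stood at 8.87 FPKM in mock K562, HBA2 at 8.52, HBA1 at 8.04 and HBQ1 at 5.71, and all 4 were listed at 0 in both other mock lines. HBA1 and HBA2 are near-identical as well. HBM was at 0 everywhere. PcTF K562 had more of every detected chain, with 8297 FPKM of HBG2, 7199 of HBG1, 5574 of HBE1, 73.5 of HBZ, 33.1 of HBD, 26.1 of HBA1, 24.5 of HBA2 and 22.8 of HBQ1. Among the other lines only HBE1 was above 1 FPKM, at 28.6 FPKM in PcTF U-2 OS and 2.30 in PcTF SK-N-SH. All 8 globins compared were higher in mock K562, and 7 of them passed the 1 FPKM filter through K562 alone. Their median difference was 6.32, or 4.69 against genes of like length and GC content. It was 2.71 with values listed at 0 set to the FPKM of 3 reads, since short transcripts have a high detection floor.

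**Figure D3:**
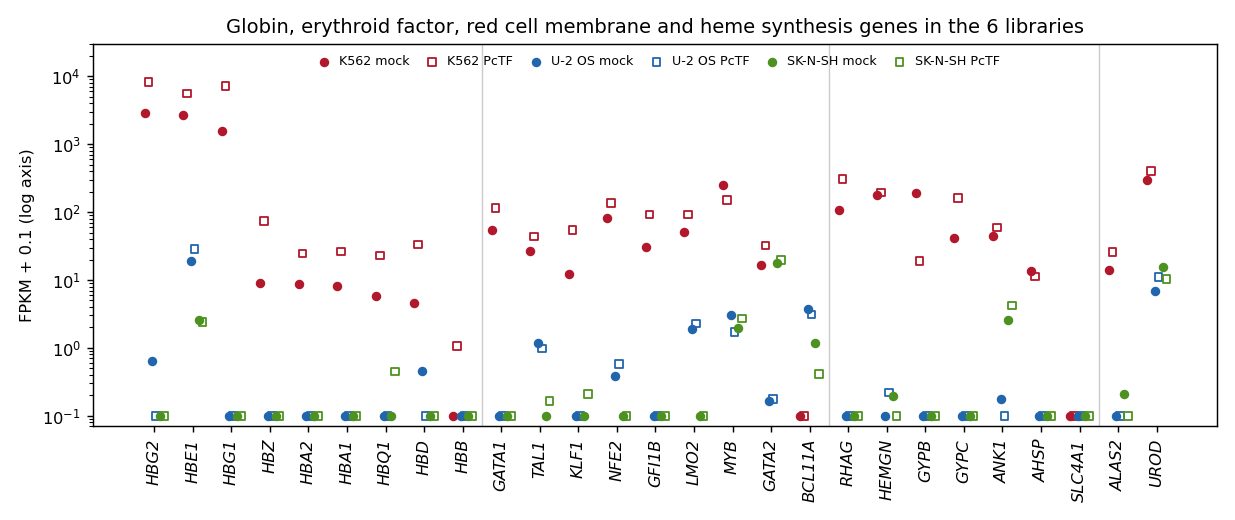
FPKM + 0.1 (log axis) of globin, erythroid factor, red cell membrane and heme synthesis genes in 6 libraries, with K562 in red, U-2 OS in blue and SK-N-SH in green, mock as filled circles and PcTF as open squares; vertical lines separate the groups. HBG2, HBE1 and HBG1 reach 2912, 2694 and 1567 FPKM in mock K562, HBB and SLC4A1 are at 0 in all mock libraries, and BCL11A is at 0 in K562 and above 0 in the other lines.

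Of 20 transcription factors of the red cell program, 12 were higher in mock K562 and 2 lower, and 8 reached 1 FPKM in mock K562 alone. GATA1, the central factor of red cell and platelet precursors, stood at 55.1 FPKM in mock K562 and 114 in PcTF K562, and was listed at 0 in all 4 libraries of U-2 OS and SK-N-SH. GFI1B, a repressor that acts with it, stood at 30.9 FPKM in mock K562, against 0 in both. KLF1, which activates the adult beta chain and many red cell genes, stood at 12 FPKM, against 0 in both. NFE2 was at 82.0 FPKM, against 0.283 in mock U-2 OS and 0 in mock SK-N-SH, and TAL1 at 26.3, against 1.07 and 0. LMO2, which bridges GATA1 and TAL1, was at 50.8 FPKM, against 1.77 and 0, and LYL1, a relative of TAL1, at 41.0, against 0 and 0.121. MYB, a factor of immature blood cells, was at 248 FPKM, against 2.97 and 1.86. Each of these genes was above both other lines in PcTF K562 as well.

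GATA2, which precedes GATA1 in blood progenitors, did not set K562 apart. It stood at 16.8 FPKM in mock K562, against 0.0671 in mock U-2 OS and 17.6 in mock SK-N-SH, so K562 and SK-N-SH had like levels and U-2 OS was low. BCL11A, which silences the fetal globins in adult red cells, was listed at 0 in both K562 libraries, against 3.60 FPKM in mock U-2 OS and 1.07 in mock SK-N-SH. ZBTB7A, the other known repressor of fetal globin, was at 22.2 FPKM in mock K562, against 3.09 and 2.54. Its PcTF values were closer, at 8.97 FPKM in K562, against 4.29 and 5.02. BACH1, a heme-sensing repressor, was lower in mock K562, at 8.72 FPKM against 53.8 and 32.9, a difference of -2.39 that shrank to -0.86 against genes of like length and GC content. The median over the 20 factors was 4.10 in the mock set, 4.83 in the PcTF set and 3.84 against genes of like length and GC content.

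The promoters of these genes were searched for the GATA motif, since it is the sequence that GATA factors are known to bind. The motif was taken as AGATAA or TGATAA on either strand within the 250 bases before the start of the gene, in RefSeq promoter sequences of build GRCh38.p14, in which 52 of the 78 symbols of the globin, erythroid factor, red cell membrane and heme lists were found. It was present in 17 of the 52 (32.7%), genes that were not compared included. Among them it was in 11 of the 27 (40.7%) that were higher in mock K562 and in 3 of the 20 (15.0%) that were compared and not higher. Whether the motif goes with the level in K562 was not tested. The motif was present in 14.9% of all 27305 promoters, in 8.32% of those of all genes compared, in 10.0% of those of all higher genes and in 11.2% of those of all lower genes. The motif CACCC on either strand, to which KLF factors bind, was in 51.9% of the 27 and in 53.7% of all promoters. A match describes the letters in this window and is not evidence of binding. Of the 11, the promoters of 2 factors of the program, 1 beta-like globin, 1 heme enzyme and 2 blood group proteins are shown over the 150 bases before the start, 5′ to 3′ on the strand of the gene, with the GATA motif or its reverse complement in capitals.
KLF1 (chr19:12887202-12887351, minus strand): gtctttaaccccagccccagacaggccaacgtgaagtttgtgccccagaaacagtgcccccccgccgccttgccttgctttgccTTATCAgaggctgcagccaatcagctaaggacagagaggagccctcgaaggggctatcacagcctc
TAL1 (chr1:47232336-47232485, minus strand): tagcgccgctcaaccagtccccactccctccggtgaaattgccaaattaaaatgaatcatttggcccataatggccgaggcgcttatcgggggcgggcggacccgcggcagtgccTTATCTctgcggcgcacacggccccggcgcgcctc
HBD (chr11:5234484-5234633, minus strand): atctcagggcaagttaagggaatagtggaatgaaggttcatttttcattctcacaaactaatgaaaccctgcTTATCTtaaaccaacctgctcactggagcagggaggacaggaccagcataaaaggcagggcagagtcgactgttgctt
ALAS2 (chrX:55030978-55031127, minus strand): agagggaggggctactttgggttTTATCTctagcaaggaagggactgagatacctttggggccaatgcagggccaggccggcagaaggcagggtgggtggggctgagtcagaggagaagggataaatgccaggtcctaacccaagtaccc
RHAG (chr6:49636840-49636989, minus strand): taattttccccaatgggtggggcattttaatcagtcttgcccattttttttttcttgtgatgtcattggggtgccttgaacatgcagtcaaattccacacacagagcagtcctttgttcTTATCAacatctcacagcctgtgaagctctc
KEL (chr7:142962364-142962513, minus strand): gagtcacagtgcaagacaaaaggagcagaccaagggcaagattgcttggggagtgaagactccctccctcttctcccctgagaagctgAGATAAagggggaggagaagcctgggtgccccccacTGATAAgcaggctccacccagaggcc

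The motif began 66 bases before the start in KLF1, 35 in TAL1, 78 in HBD, 127 in ALAS2, 31 in RHAG, and at 62 and 26 bases in KEL. In KLF1, TAL1, HBD, ALAS2 and RHAG it lay on the opposite strand, and in KEL on the strand of the gene.

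Proteins of the red cell surface and its skeleton were present in part. RHAG, which anchors the Rh proteins, stood at 108 FPKM in mock K562 and 308 in PcTF K562, against 0 in all 4 other libraries. HEMGN, a nuclear protein of red cell precursors, was at 179 FPKM, against 0 in mock U-2 OS and 0.0985 in mock SK-N-SH. The glycophorins, the main sialic acid carriers of the red cell, included GYPB at 189 FPKM and GYPC at 41.7, against 0 in both other mock lines. GYPB and GYPE are near-copies, and GYPB stood at 18.8 FPKM in PcTF K562, so how their reads are divided is uncertain. ANK1, which ties the skeleton to the membrane, stood at 43.8 FPKM, against 0.0772 and 2.48. KEL, the Kell blood group protein, was at 29.6 FPKM, against 0.524 and 0.164. AHSP, the chaperone of alpha globin, was at 13.4 FPKM, against 0 in both.

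Some members of the program were missing, low or not past 4-fold. SLC4A1, the anion exchanger band 3, was listed at 0 in all 6 libraries, and EPB42, which binds it, was at 0 in mock K562 and at 2.04 FPKM in PcTF K562. CA1, a carbonic anhydrase of mature red cells, reached 2.58 FPKM in mock K562. EPOR, the erythropoietin receptor, did not differ by the call rule, at 3.34 FPKM in mock K562, against 1.83 in mock U-2 OS and 4.64 in mock SK-N-SH, and TFRC, the transferrin receptor, stood at 61.3 FPKM, against 27.9 and 36.7. Of 25 genes compared, 19 were higher and none lower in mock K562, and 20 were higher in PcTF K562. The median was 4.61 in the mock set, 5.18 in the PcTF set and 4.46 against genes of like length and GC content, and 14 of the 25 passed the filter through K562 alone.

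Heme synthesis was uneven along its steps. ALAS2, the red cell form of the first enzyme, stood at 13.7 FPKM in mock K562, against 0 in mock U-2 OS and 0.112 in mock SK-N-SH, while the housekeeping form ALAS1 stood at 11.2 FPKM, against 9.19 and 7.15. ALAD, the enzyme of the second step, was at 1.94 FPKM, against 3.30 and 5.36. UROS was at 13.7 FPKM, against 14.9 and 15.6, and UROD at 295, against 6.80 and 15.5. CPOX was lower, at 1.62 FPKM, against 13.0 and 5.30, and PPOX higher, at 28.0 FPKM, against 1.09 and 2.82. FECH, which inserts the iron, was at 6.96 FPKM, against 1.04 and 3.62. UROD and PPOX differed by 4.69 and 3.78 on the centered log2 scale, and by 3.06 and 2.15 against genes of like length and GC content. Of 15 genes of the list, 6 were higher and 1 was lower, with a median of 0.99 in the mock set and 1.44 in the PcTF set. Against genes of like length and GC content the median was -0.26 in the mock set and 0.82 in the PcTF set. In the mock set the list as a whole thus has no direction that holds on both scales.

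Among genes of iron handling, the ferritin chains were high. FTL, the light chain, stood at 2412 FPKM in mock K562, against 205 in mock U-2 OS and 251 in mock SK-N-SH, and at 7817 FPKM in PcTF K562, against 273 and 307. FTH1, the heavy chain, stood at 2105 FPKM in mock K562, against 92.9 and 102, but at 600.3 FPKM in PcTF K562, against 129.9 and 291. BLVRB, a biliverdin reductase abundant in red cells, was at 339 FPKM in mock K562, against 18.2 and 3.83. TFR2, a transferrin receptor of red cell precursors and liver, was at 11.1 FPKM, against 0 and 0.255. HMOX1, which degrades heme, was listed at 0 in both K562 libraries, against 1.18 and 0.694 FPKM in the other mock lines. Of 15 genes, 6 were higher and 2 lower, with a median of 0.16, or 0.69 against genes of like length and GC content, and in the PcTF set 4 were higher and 2 lower.

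Genes shared by white and red blood cells were higher in mock K562 as well. CD53, a tetraspanin of blood cells, stood at 126 FPKM in mock K562, against 0.150 in mock U-2 OS and 0.141 in mock SK-N-SH. LCP1, a leukocyte actin bundler, was at 364 FPKM, against 5.02 and 0.322, and PTPRC, the phosphatase CD45 that marks nucleated blood cells, at 45.4, against 0.22 and 0.0750. CD33, a myeloid surface protein, was at 65.9 FPKM, against 1.86 and 0.218, and LCP2, a signaling adaptor, at 34.3 FPKM, against 0.0923 and 0. LCP2 was at 7.72 FPKM in PcTF K562, against 1.16 and 0.211. ARHGDIB, a GTPase inhibitor common in blood cells, separated K562 from U-2 OS but not from SK-N-SH, at 92.2 FPKM, against 3.44 and 75.3. The progenitor markers CD34 and KIT were below 1 FPKM in all 3 mock libraries. Of 22 genes compared, 18 were higher and none lower, with a median of 5.07 in the mock set, 4.28 in the PcTF set and 4.48 against genes of like length and GC content, and 13 passed the filter through K562 alone.

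Markers of single white cell types were mostly at or near 0. Of 20 granulocyte and monocyte genes, 18 were below 1 FPKM in all 3 mock libraries, MPO among them at 0 in each. LYZ, lysozyme, stood at 13.2 FPKM in mock K562 and 26.6 in PcTF K562, against 0 in all 4 other libraries. Of 20 lymphocyte genes 16 were below 1 FPKM, and CD3D stood at 14.3 FPKM in mock K562, against 1.01 in mock U-2 OS and 0 in mock SK-N-SH. NCAM1, a lymphocyte marker that is also a neural adhesion protein, was at 0 in mock K562, against 9.91 in mock U-2 OS and 29.0 in mock SK-N-SH. Of 20 platelet precursor genes 12 were below 1 FPKM, GP9 at 0 in all 6 libraries, while ITGA2B, the integrin of platelets, was at 2.66 FPKM in mock K562, against 0.196 and 0.184, and GP6, the platelet collagen receptor, at 2.98 FPKM, against 1.53 and 0. GP1BB stood at 21 FPKM in mock K562, against 0.0373 and 0, but it shares its deposited interval with SEPT5 and is uncertain. Of the 8 platelet precursor genes compared, 4 were higher and 1 was lower, and 3 passed the filter through K562 alone. Their median was 1.82, or 1.53 against genes of like length and GC content. F2R was the lower gene, with a centered difference of -2.08, and ITGB3 (-1.28) and RAB27B (-0.50) also had negative differences.

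Genes of BCR-ABL1 and STAT5 signaling were higher in 12 of 22 and lower in 3. STAT5A stood at 61.3 FPKM in mock K562, against 0.0999 in mock U-2 OS and 0.188 in mock SK-N-SH, and STAT5B at 30.3 FPKM, against 1.97 and 3.38. CISH, a direct STAT5 target that damps cytokine signals, was at 30.5 FPKM, against 0.322 and 0.706. The survival kinase PIM1 was at 98.1 FPKM, against 2.86 and 2.15, and its relative PIM2 at 69.6 FPKM, against 1.03 and 3.30. Differences were 7.86 for STAT5A, 5.57 for CISH, 5.11 for PIM1 and 5.01 for PIM2, and the PcTF set gave 7.11, 4.89, 5.28 and 5.26. MYC was at 209 FPKM, against 13.6 and 7.21, and in the PcTF libraries at 146 FPKM, against 42.3 and 9.76. BCL2L1, the survival gene of red cell precursors, was at 106 FPKM in mock K562, against 7.56 and 4.66, but at 14.8 FPKM in PcTF K562, against 11.6 and 6.04, so this difference did not recur.

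Both partners of the fusion were themselves higher. BCR stood at 6.80 FPKM in mock K562, against 0.124 in mock U-2 OS and 1.49 in mock SK-N-SH, and ABL1 at 35.9 FPKM, against 5.70 and 11.4. Levels per gene do not separate the fused from the normal transcript. Feedback genes of the RAS pathway lay on the other side: DUSP6, a feedback phosphatase, was at 0 in mock K562, against 0.565 and 43.4 FPKM, and SPRED1 at 1.85 FPKM, against 15.2 and 19.2. SHC1, an adaptor of receptor kinases, was at 5.48 FPKM in mock K562, against 29.6 and 55.9. The median of the list was 2.80 in the mock set, 2.38 in the PcTF set and 2.69 against genes of like length and GC content.

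Genes around BCR on chromosome 22 were higher together. Among 13017 runs of 25 neighboring compared genes, the run with the highest median lay from MGC16703 to CHCHD10 (chromosome 22, 21354061–24110141, hg19). Its median was 2.98 in the mock set, 3.40 in the PcTF set and 2.55 against genes of like length and GC content, and 17 of its 25 genes were higher and 3 lower. Neighboring runs overlap, and the median of all runs was -0.43. Within it PRAME, a tumor antigen that represses retinoic acid signaling, stood at 1067 FPKM in mock K562, against 126 and 64.2. SDF2L1, a chaperone of the endoplasmic reticulum, was at 277 FPKM, against 2.14 and 3.73, and UBE2L3, a ubiquitin-conjugating enzyme, at 92.6, against 11 and 8.63. CRKL, the adaptor that BCR-ABL1 phosphorylates, lay just outside the run, at 103 FPKM, against 42.1 and 15.1. Other genes of the run were level or lower, such as RAB36 at 0 FPKM, against 5.77 and 3.77. SDF2L1, UBE2L3 and RAB36 were named after their values were seen. K562 is known to carry extra copies of the rearranged BCR-ABL1 segment, and DNA copy number was not measured here.

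The next runs in order were nearer 0 against genes of like length and GC content. A run of histone and olfactory receptor genes on chromosome 6 (HIST1H2AG to OR2B6) stood at 2.89 and one on chromosome 11 that spans the beta-globin cluster (CARS to UBQLNL) at 2.74, and they were at 1.28 and 1.38 on that scale. Whole chromosomes differed less, with medians from -1.44 (chromosome 13) to 0.74 (chromosome 22), and from -0.82 (chromosome 13) to 0.10 (chromosome 21) against genes of like length and GC content.

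**Figure D4:**
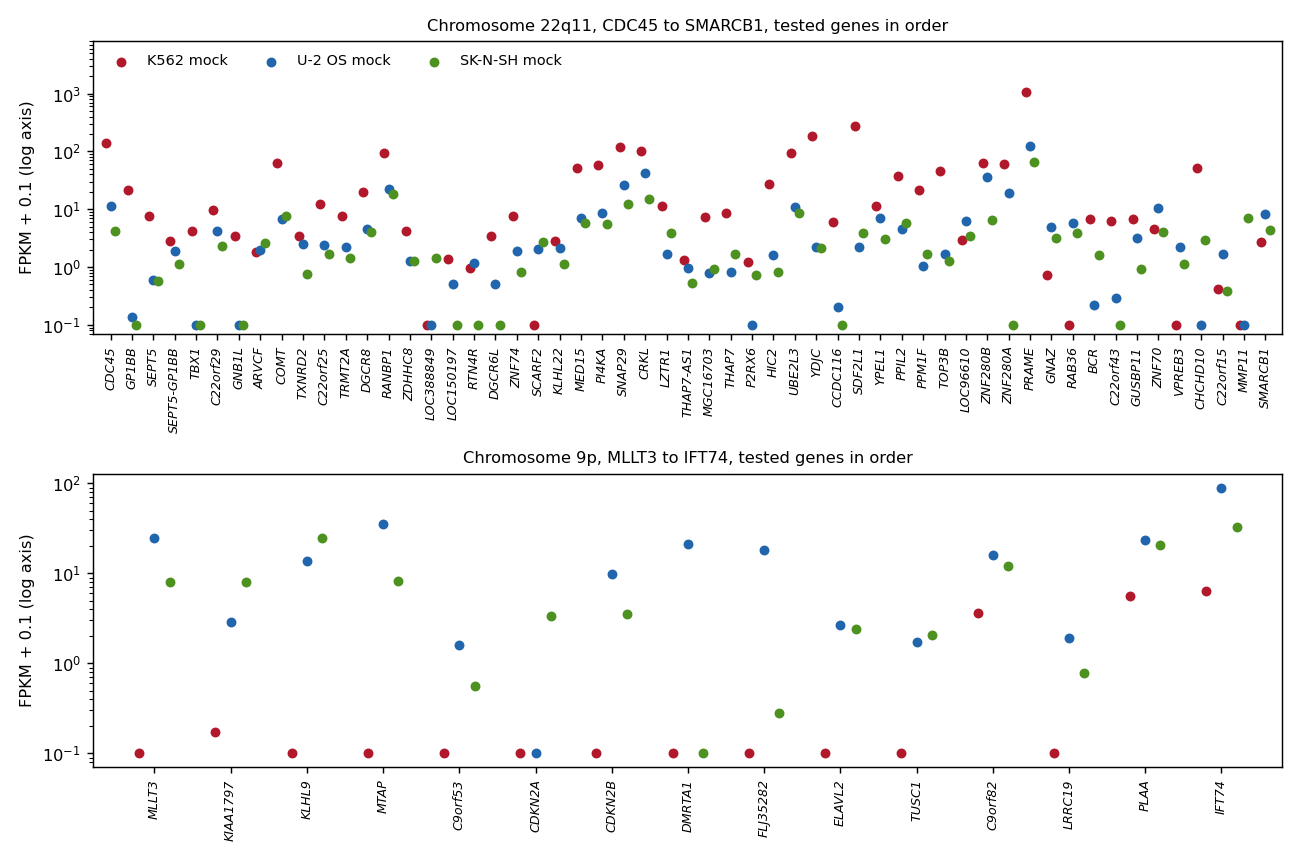
FPKM + 0.1 (log axis) of mock K562 (red), mock U-2 OS (blue) and mock SK-N-SH (green) for compared genes in chromosome order, from CDC45 to SMARCB1 on 22q11 (top) and from MLLT3 to IFT74 on 9p (bottom). K562 lies above both other lines for many 22q11 genes, with PRAME at 1067 FPKM, while on 9p MLLT3, KLHL9, MTAP, CDKN2B and ELAVL2 are at 0 in K562.

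On the short arm of chromosome 9 a block of genes was listed at 0 in K562. Of 9844 genes at 1 FPKM or more in both other mock lines, 411 (4.18%) were listed at 0 in both K562 libraries, and 5 of them followed each other from KLHL9 to TUSC1 (chromosome 9, 21331018–25678856, hg19). KLHL9, a ubiquitin ligase adaptor, was at 0 in both K562 libraries, against 13.8 FPKM in mock U-2 OS and 24.5 in mock SK-N-SH. MTAP, which salvages methionine, was at 0, against 35.6 and 8.16, and CDKN2B, the cell cycle inhibitor p15, at 0, against 9.85 and 3.42. ELAVL2, an RNA-binding protein of neurons, was at 0, against 2.60 and 2.33, and TUSC1 at 0, against 1.63 and 1.95. MLLT3, which lies on the telomeric side, was at 0 in mock K562 and 0.125 FPKM in PcTF K562, against 24.6 and 7.91 in the other mock lines. PLAA, on the centromeric side, was at 5.48 FPKM, against 23.3 and 20.8, and IFT74 at 6.33, against 89.8 and 32.4.

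CDKN2A, the p16 and ARF gene in the middle of the block, is a weaker guide. It was at 0 in both K562 libraries, but also at 0 in both U-2 OS libraries, and at 3.25 FPKM in mock SK-N-SH. All 11 genes compared were lower in mock K562 and 9 in PcTF K562, and 7 of 10 were against genes of like length and GC content. Of the 11, 9 passed the filter through the other lines alone, so the filter largely set their direction. K562 is known to have lost this segment, and DNA was not measured here. The block was not the only one of its kind. The longest run of such genes held 14 protocadherin genes of chromosome 5 (PCDHA11 to PCDHB13, 140165876–140596993), of which 5 share a deposited interval and 9 have their own, and another run of 5 lay on chromosome 19 (ZNF471 to MIMT1). By the median over 25 neighboring compared genes, the run that spans the 9p block (SNAPC3 to LRRC19) was the fifth lowest among runs that do not overlap, at -3.74, after runs on chromosome 5 at -4.98, chromosome 12 at -4.50, chromosome 7 at -4.02 and chromosome 10 at -4.01.

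Cancer-testis genes, which are normally confined to the germ line, were a further group with high levels in K562. PAGE5 stood at 280.3 FPKM in mock K562 and 148 in PcTF K562, and PAGE1 at 58.5 and 66.5, against 0 in all 4 other libraries. SSX1, a repressor known from fusions in synovial sarcoma, was at 547 FPKM in mock K562, against 1.37 in mock U-2 OS and 0 in mock SK-N-SH, though SSX genes are close copies and share reads. CSAG1 was at 128 FPKM, against 0 and 11.8, MAGEC2 at 61.8, against 2.86 and 0.215, and MAGEB2 at 32.0, against 20.4 and 0. MAGEA10 was the reverse, at 0 in mock K562, against 8.95 and 10.5. MAGEA4 marked U-2 OS, at 0.991 FPKM in mock K562, against 117 in mock U-2 OS and 0.127 in mock SK-N-SH. MAGEA1 was shared by K562 and U-2 OS, at 30.8 FPKM, against 31.6 and 0.511. Of 19 genes compared, 11 were higher and 1 was lower, with a median of 3.43 in the mock set, 3.35 in the PcTF set and 3.03 against genes of like length and GC content.

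Oncofetal genes were split. HMGA2, a chromatin protein of embryonic and mesenchymal cells, was at 0 in both K562 libraries, against 590.3 FPKM in mock U-2 OS and 165 in mock SK-N-SH, while its relative HMGA1 was at 109 FPKM in mock K562, against 11.7 and 12.9. IGF2BP1, an RNA-binding protein of fetal tissue, was at 29.1 FPKM, against 5.48 and 0.0944, and LIN28B, which blocks let-7 and favors fetal globin, at 9.95 FPKM, against 6.06 and 4.06. SALL4 was at 0 in both K562 libraries, against 3.00 and 1.17. Of 12 genes compared, 4 were higher and 3 lower.

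The HOX genes separated the lines by cluster. In the HOXB cluster, HOXB9 stood at 72.8 FPKM in mock K562, against 16.4 in mock U-2 OS and 0 in mock SK-N-SH, HOXB3 at 17.9, against 7.13 and 0, and HOXB4, a factor of blood stem cells, at 11, against 0 in both. HOXB5, HOXB6 and HOXB7 were at 8.98, 7.57 and 7.35 FPKM in mock K562, and each was at 0 in SK-N-SH. In the HOXA cluster every gene was at 0 in mock K562 and in mock SK-N-SH, whereas U-2 OS reached 18.7 FPKM for HOXA13, 10.9 for HOXA10, 4.68 for HOXA11 and 3.64 for HOXA9. In the HOXD cluster K562 was at 0 for all genes but HOXD8, at 0.608 FPKM, against 6.56 in mock U-2 OS and 19.5 in mock SK-N-SH, and HOXD10 was at 9.72 in mock U-2 OS and 0.240 in mock SK-N-SH. Of the HOXC cluster, HOXC9 was higher in mock K562, at 11.2 FPKM, against 1.84 and 0.432, and HOXC10 was at 0, against 7.00 and 0. PcTF K562 showed the same order of clusters, with HOXB9 at 119.6 FPKM and HOXB4 at 12.2, though HOXB3 was level with U-2 OS, at 8.57 FPKM, against 8.81 in PcTF U-2 OS and 0 in PcTF SK-N-SH. It also had low values of genes that mock K562 lacked, such as HOXC10 at 0.768 FPKM. In the PcTF set 7 HOX genes were higher and 9 lower, and of the 15 HOX genes at 0 in mock K562, 7 were also at 0 in PcTF K562. Of 29 HOX genes compared in the mock set, 9 were higher and 15 lower. Of the 29, 18 passed the filter through the other lines alone and 3 through K562 alone. Of the 15 lower genes, those of the HOXA cluster rest on U-2 OS alone, since K562 and SK-N-SH were both at 0. The median of -2.03, or -3.01 against genes of like length and GC content, turned to 2.92 when only the 14 genes at 5 FPKM or more in a mock library were counted, so it says little.

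**Figure D5:**
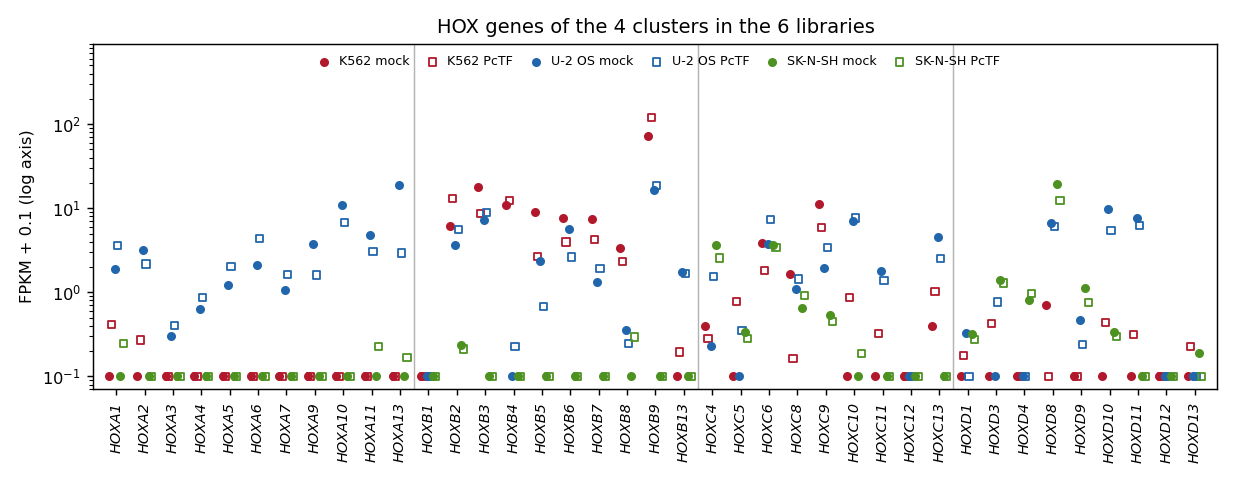
FPKM + 0.1 (log axis) of the 39 HOX genes in 6 libraries, K562 in red, U-2 OS in blue and SK-N-SH in green, mock as filled circles and PcTF as open squares, with vertical lines between the clusters A, B, C and D. In the mock libraries K562 leads in cluster B apart from HOXB1 and HOXB13, where HOXB9 reaches 72.8 FPKM, and is at 0 in the mock library throughout cluster A, where only U-2 OS has values above 1 FPKM.

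The polycomb proteins, whose mark PcTF was made to read, had no common direction. EZH2, the methyltransferase of H3K27, stood at 75.5 FPKM in mock K562, against 7.80 in mock U-2 OS and 19.4 in mock SK-N-SH, PHF19, a partner of it, at 127, against 4.55 and 3.16, and JARID2, another partner, at 30.1, against 8.26 and 4.37. All were higher in PcTF K562 too, at 56.5, 223 and 24.2 FPKM. Among lower genes, AEBP2, also a partner of EZH2, was at 1.44 FPKM in mock K562, against 19.1 and 14.9, and PCGF2, a subunit of the other polycomb complex, at 0.357, against 4.47 and 7.87. PCGF2 was at 2.62 FPKM in PcTF K562 and no longer past 4-fold. BMI1 was nearly 0 in mock K562 and at 8.42 FPKM in PcTF K562, but it overlaps a readthrough gene and is uncertain. CBX8, the source of the PcTF chromodomain, was at 1.59 FPKM in mock K562, against 0.610 and 0.287. Of 29 genes, 4 were higher and 5 lower, near the background or below it, with a median of 0.14, or 0.37 against genes of like length and GC content, and in the PcTF set 4 were higher and 2 lower.

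The study's own panel of polycomb targets was mixed in the mock state. Of 12 compared, WT1, a factor of kidney and blood progenitors, stood at 38.1 FPKM in mock K562, against 2.39 and 0.0849. CADM1, an adhesion protein, was at 0 in both K562 libraries, against 28.9 and 26.8 FPKM, CLU at 0.322, against 48.1 and 22.1, and TRIM22 at 0.817, against 13.8 and 15.4. The panel had 4 higher and 6 lower genes. In the PcTF set 2 were higher and 5 lower. The study chose the panel from earlier work on polycomb silencing.

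Nearly all genes of the extracellular matrix were lower in mock K562. COL3A1, a fibrillar collagen, stood at 0.0404 FPKM in mock K562, against 451 in mock U-2 OS and 971 in mock SK-N-SH. POSTN, a matrix protein of bone and scar, was at 0, against 119.6 and 457, and COL1A1 at 0.224, against 28.7 and 441. FSTL1 was at 0.0587 FPKM, against 179 and 114, LOX, which crosslinks collagen, at 0, against 72.6 and 24.9, and COL4A1, a basement membrane collagen, at 0, against 57.2 and 20.7. Of 23 genes, 21 were lower and none higher, and 17 passed the filter through the other lines alone. The exceptions were FN1, fibronectin, at 51.9 FPKM in mock K562, against 42.9 and 419, and COL6A3, at 12.3, against 32.2 and 6.26. In PcTF K562 these exceptions were low as well, at 12.8 FPKM for FN1, against 55.4 and 458, and 0.331 for COL6A3, against 20.6 and 24.0. The list median was -6.13 in the mock set, -5.01 in the PcTF set and -6.53 against genes of like length and GC content.

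Most adhesion genes were lower too. CNN3, an actin-binding calponin, was at 0 in mock K562, against 249 FPKM in mock U-2 OS and 394 in mock SK-N-SH, and CDH2, N-cadherin, at 0, against 98.3 and 569. CAV1, the coat protein of caveolae, was at 0, against 54.1 and 295. CTGF, a secreted target of the YAP pathway, was at 0, against 174 and 71.1, and its relative CYR61 at 0.715, against 147 and 30.7. EGFR was at 0.0396 FPKM, against 14.4 and 52.8. The integrins did not move as a block. The collagen and laminin receptors ITGA1 and ITGA2 were at 0, against 27.9 and 65.8 FPKM for ITGA1 and 51.7 and 81.3 for ITGA2, and ITGA6 and ITGA3 were below 0.1. ITGB1, their common beta chain, was at 11.3 FPKM in mock K562, against 164 and 160.5, while ITGA5, the fibronectin receptor chain, was at 25.9, against 14.9 and 9.27. ANXA1 and LGALS1 were within 2-fold of the other lines on the centered scale, at 252 FPKM, against 155 and 102, and at 77.8, against 77.5 and 166. Of 34 genes, 26 were lower and none higher, with a median of -5.68 in the mock set, -4.73 in the PcTF set and -6.04 against genes of like length and GC content. Of the 34, 20 passed the filter through the other lines alone.

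The markers of the other lines were used to check their labels. Of 18 neuroblastoma genes, 16 were lower in mock K562 and none higher, but most of these set SK-N-SH apart from both other lines. Of the 18, 17 passed the filter through the other lines alone, so the count was largely set by the filter. STMN2, a neuronal tubulin regulator, was at 0 in mock K562, against 1.32 FPKM in mock U-2 OS and 455 in mock SK-N-SH, and DBH, which makes noradrenaline, at 0, against 0 and 21.8. TH, the first enzyme of that pathway, was at 0 in all 3 mock libraries. The median of the list was -4.44, or -5.15 against genes of like length and GC content, but -1.04 against U-2 OS alone and -8.22 against SK-N-SH alone. Of the osteoblast list, RUNX2 was at 9.13 FPKM in mock K562, against 7.30 and 3.9, and at 0.128 in PcTF K562. SP7, ALPL, IBSP, DLX5 and COL1A2 were below 1 FPKM in all 3 mock libraries. PRRX1, a mesenchymal factor, was at 0 in K562, against 11.1 in mock U-2 OS and 389 in mock SK-N-SH. POSTN was at 120 FPKM in mock U-2 OS. Of 11 genes of this list compared, 8 were lower and 2 higher in mock K562, and 7 passed the filter through the other lines alone. The median was -5.14, both against the 2 lines and against U-2 OS alone. The U-2 OS library thus lacked some bone markers and carried others, and the SK-N-SH library carried mesenchymal as well as neuronal genes.

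Among genes used as references, GAPDH differed between the 2 K562 libraries. It was at 428 FPKM in mock K562 and 2894 in PcTF K562. The other lines had 1503 FPKM in mock U-2 OS and 599 in mock SK-N-SH, and 1319 and 869.5 in their PcTF libraries. Of 14 genes picked as stable across tissues, 1 was higher and 1 lower in either set, with a median of 0.85 in the mock set and 0.93 in the PcTF set, and of -0.23 against genes of like length and GC content. ACTB stood at 892 FPKM in mock K562, against 422 and 665, and VCP at 50.1, against 47.1 and 37.9.

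Targets of ATF4, which answers to amino acid shortage and stress of the endoplasmic reticulum, were higher in mock K562 and for the most part not in PcTF K562. ASNS, asparagine synthetase, stood at 975 FPKM in mock K562, against 44.3 in mock U-2 OS and 28.1 in mock SK-N-SH, and at 52.5 in PcTF K562, against 77.6 and 33.9. DDIT3, the stress factor CHOP, was at 385 FPKM, against 4.46 and 4.38, and at 44.7 in PcTF K562, against 14.2 and 9.80. ATF5 was at 222 FPKM, against 1.11 and 1.67, and at 8.85 in PcTF K562, against 2.37 and 2.49. TRIB3, a pseudokinase that feeds back on ATF4, was at 115 FPKM, against 1.37 and 3.85, and at 31.7 in PcTF K562, against 5.71 and 6.82. ATF4 itself was at 437 FPKM, against 45.3 and 24.8, and at 126 in PcTF K562, against 73.1 and 26.7. Of 31 genes, 23 were higher and 2 lower in the mock set, with a median of 3.20, or 2.41 against genes of like length and GC content. In the PcTF set 6 were higher and 3 lower, with a median of 0.56. The high level thus rests on 1 mock K562 library. Whether the vehicle, the culture or the line sets this level was not tested.

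Cytosolic ribosomal protein genes were higher in 57 of 79 and lower in 1. RPL23 stood at 11463 FPKM in mock K562, against 145 and 391, and RPS25 at 12433, against 332 and 659. Their median was 2.75 in the mock set and 1.92 in the PcTF set, where 36 were higher. The median transcript of the list has 869 bases, so it lies on the short side of the length gradient, and against genes of like length and GC content the median was 1.63 and 29 genes were higher. RPL10L, a copy of RPL10 used in testis, was the lower gene, at 0 in mock K562, against 6.77 and 0. Many ribosomal protein genes have processed pseudogenes, and how reads were shared with them is not known.

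Of 26 proliferation genes, 5 (19.2%) were higher, near the background of 16.3%, and 1 (3.85%) was lower, below the background of 28.0%. Their median was 0.76, or 0.72 against genes of like length and GC content. TK1, thymidine kinase, was at 47.9 FPKM in mock K562, against 6.18 and 4.70, and MKI67, the Ki-67 antigen, at 193, against 173 and 65.5. Targets of p53 were lower in 9 of 23 and higher in 4, with a median of -1.61, or -0.92 against genes of like length and GC content, and in the PcTF set 9 were lower and 1 higher. K562 is known to lack working p53. CDKN1A, the inhibitor p21, stood at 3.93 FPKM in mock K562, against 16 and 51.5, FAS, a death receptor, at 0.0981, against 26.0 and 16.9, and EDA2R at 0, against 17.0 and 36.8. The higher genes included GDF15 at 115 FPKM, against 1.03 and 7.15, and BBC3 at 7.27 FPKM, against 0.179 and 0.336, which in the PcTF set were at 20.6, against 9.60 and 19.9, and at 0.589, against 1.02 and 0.546. Both are also known to answer to stress factors of the ATF4 group. Whether p53 or these factors set the levels seen here was not tested.

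Interferon-stimulated genes were lower in 17 of 31 and higher in 4, and 17 of the 31 passed the filter through the other lines alone. IFI44 was at 0 in both K562 libraries, against 74.2 FPKM in mock U-2 OS and 5.69 in mock SK-N-SH, and OAS1, a sensor of double-stranded RNA, at 0, against 11.2 and 7.07. IFITM1, a membrane protein that blocks virus entry, was the reverse, at 1085 FPKM in mock K562, against 3.99 and 1.87. In the PcTF libraries 23 were lower, and IFI44 stood at 236 FPKM in PcTF U-2 OS and 75.0 in PcTF SK-N-SH. The median was -2.57 in the mock set, -5.97 in the PcTF set and -2.49 against genes of like length and GC content. HLA genes could not be read, since 11 of the 20 class I presentation genes lie on alternative haplotype contigs in the deposited tables and were at or near 0 in all 6 libraries. B2M, the class I light chain, stood at 120.0 FPKM in mock K562, against 287 and 99.0.

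The 20 highest and 20 lowest genes, at 1 FPKM or more in K562 or in both other lines, were ranked by the same difference as the calls. They are therefore no separate support for the lists. Of the highest 20, 14 were at 0 in both other lines and so passed the filter through K562 alone, and 17 were higher in the PcTF set too. Besides globins, GYPB, HEMGN, RHAG, PAGE5 and SSX1 they hold ABO, the blood group glycosyltransferase, at 232 FPKM in mock K562 and 5.98 in PcTF K562. MS4A3, a membrane protein of myeloid progenitors, was at 154 and 22.8, SRGN, the proteoglycan of blood cell granules, at 122 and 44.9, and APOC1, an apolipoprotein, at 208 and 205. ALDH1A2, which makes retinoic acid, was at 119 FPKM in mock K562 and 163 in PcTF K562, against 0 in both other mock lines. HNRNPA1P10, a pseudogene, SPRR2D, a protein of the skin envelope, and S100P, a calcium-binding protein, did not recur: they were at 299, 128 and 307 FPKM in mock K562 and at 0.312, 0 and 0.441 in PcTF K562. HNRNPA1P10 is a near-copy of HNRNPA1, and its reads are uncertain.

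All 20 lowest genes were lower in the PcTF set and against genes of like length and GC content, and 16 were at 0 in mock K562. Besides COL3A1, CNN3, HMGA2, CDH2, POSTN, CAV1, CTGF and FSTL1 they hold TGFBI, a matrix protein induced by TGF-beta, at 0 in mock K562, against 48.4 FPKM in mock U-2 OS and 937 in mock SK-N-SH. APP, the amyloid precursor, was at 0.0703 FPKM, against 318 and 403, and ROBO1, an axon guidance receptor, at 0, against 203 and 45.6. INHBA, a subunit of activin, was at 0, against 72.3 and 139.5, and ALCAM, an adhesion protein, at 0.0915, against 113 and 285. Their differences ran from -12.34 to -9.82 in the mock set and from -11.78 to -6.61 in the PcTF set.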

How the data were processed

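RNA-seq libraries of mock-transfected K562, U-2 OS and SK-N-SH cells were compared, with the PcTF library of each line beside them; the other 4 libraries of the series were not used here. Per the submitters' processing notes and the paper's methods, Bowtie2 and TopHat2 2.1.0 placed the single-end reads on hg19, and the authors computed the deposited FPKM values with Cuffdiff, in 1 table per line, each normalized on its own. The tables also hold the authors' fold changes and p-values of PcTF against mock, which were not used. Genes flagged by Cuffdiff as not quantified (8) were left out of the 20 highest and 20 lowest genes and of the chromosome and run medians. They were not removed from the counts of higher and lower genes or from the lists. The tables give no reads per gene, so depth was estimated from the FPKM steps of single-exon genes, with values counted as whole within 3%, which held for 92.4% to 99.1% of low values; fragments of 200 bp with an SD of 80 bp were assumed. Detection floors are 3 reads and cover counting error only.

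Tables were joined by gene symbol with python 3.11.15 and pandas 2.3.3. Levels were compared as log2(FPKM + 0.1), which shrinks the difference between low values above 0. For values listed at 0 it can overstate what the depth shows. With zeros set to the FPKM of 3 reads the globin median fell from 6.32 to 2.71. With 1 library per line no test was run. Transcript length and GC content came from GENCODE transcripts lifted to GRCh37, for 19811 of 23245 genes, 1928 of them by an older symbol. The script was tested on simulated data. Of 31 gene lists with 725 symbols, 718 were in the tables and 552 were compared. The members and lists were chosen with earlier results of these data known. Named genes are list members, of lists over 12 members those with the largest difference and the defining genes, and the 20 highest and 20 lowest genes with intervals of 300 bp or more that are not small RNAs; others are marked. Alternatives changed the pseudocount, the filter, the centering, the fold and the line compared. The alternative of like length and GC content, the 3-read floor and the rule of lying beyond both lines before centering were chosen after seeing the data. Some genes of the lists count in the totals but are not reported here by name.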

Additional observations from a re-analysis of the deposited data

Results flagged for a closer look

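NUPR1, a small stress-induced nuclear protein of the ATF4 list, was called in opposite directions in the 2 sets of libraries. It stood at 48.6 FPKM in mock K562, against 17.0 in mock U-2 OS and 0.588 in mock SK-N-SH, a centered log2 difference of 3.69. It was listed at 0 in PcTF K562, against 37.6 FPKM in PcTF U-2 OS and 0.717 in PcTF SK-N-SH, a difference of -6.07. With 1 library in each place the difference between the sets was not tested.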

How the results depend on the processing

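Library depths of 4.28e+06 to 7.40e+06 reads and a lone library per line limit what low values can show. No paired analysis was possible because each line has 1 library per treatment and no result comes from a test. The 8 main list medians (globins, erythroid factors, erythroid membrane, blood-wide, matrix, adhesion, HOX and ATF4 genes) kept their sign in 87 of 88 alternative values, and 46 moved by less than 0.76, the spread between the mock and PcTF sets.

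A pseudocount of 1 FPKM gave 1459 higher and 2084 lower genes, and medians of 3.16 (globins), 2.83 (erythroid factors), 2.82 (erythroid membrane), 3.15 (blood-wide), -3.86 (matrix), -4.24 (adhesion) and -0.82 (HOX). One of 0.01 FPKM gave 9.55, 5.14, 6.41 and 6.56 for the 4 blood lists in the same order, -7.42 (matrix) and -3.65 (HOX). Without a filter, erythroid membrane was 3.48 and blood-wide 2.98, endothelial genes turned to -0.45, and the medians of granulocyte, lymphocyte and epithelial genes were -0.14 each, which is the centering itself for genes at 0 in all 3 mock libraries and no reversal. At 5 FPKM or more, 2460 genes were lower, erythroid factors were 6.13, erythroid membrane 5.82, HOX turned to 2.92 and lymphocyte genes to -1.13. Centering on the reference genes gave 1239 higher genes and medians of 5.47, 3.25, 3.76 and 4.22 for the blood lists, -6.98 (matrix), -6.53 (adhesion), -2.88 (HOX) and 2.35 (ATF4). At 2-fold 3835 genes were higher. At 8-fold 1151 were higher and 2477 lower.

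Against SK-N-SH alone, erythroid factors were 4.91 and HOX -0.15. Against U-2 OS alone, blood-wide was 4.17, adhesion -4.71, HOX -3.43 and ULBP2 turned to -0.037. In the PcTF libraries the medians were 8.61 (globins), 4.28 (blood-wide), -5.01 (matrix), -4.73 (adhesion) and 0.56 (ATF4), and the sign turned for ASNS (-0.24), BAX (0.11), BBC3 (-0.58), DDIT4 (-0.36), NUPR1 (-6.07) and SPRR2D (-1.55). Against genes of like length and GC content, 1288 genes were higher, and medians were 4.69 (globins), -3.01 (HOX), 2.41 (ATF4) and -0.24 (endothelial, turned). With zeros at 3 reads, globins were 2.71, erythroid membrane 3.68 and HOX -1.25. Of the 3866 lower genes, 1938 were at 0 in K562 and 483 of those also at 0 in 1 other line.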

Other observations

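Of 6 epithelial genes compared, 4 were higher and 1 was lower in mock K562. KRT19, a keratin of simple epithelia, stood at 31.0 FPKM in mock K562 and 34.2 in PcTF K562, against 0 in all 4 libraries of the other lines. EPCAM, an adhesion protein of epithelia and of some red cell precursors, was at 35.8 FPKM in mock K562, against 5.54 in mock U-2 OS and 1.27 in mock SK-N-SH. KRT18 was at 86.0 FPKM, against 29.7 and 3.95, and MUC1, a mucin, at 8.78 FPKM, against 0 and 1.22. CLDN4, a tight junction protein, was the lower gene, at 0 in mock K562, against 1.01 and 0.119. Of 16 epithelial genes 10 were below 1 FPKM in all 3 mock libraries, CDH1 and the regulators ESRP1 and GRHL2 among them.

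Ligands that natural killer cells read had no common direction. ULBP1 stood at 9.81 FPKM in mock K562, against 0 in both other mock lines, but at 0.688 in PcTF K562, against 0.0794 (PcTF U-2 OS) and 0.692 (PcTF SK-N-SH). ULBP3 was at 0 in both K562 libraries, against 3.08 and 1.09 FPKM in the other mock lines, and PVR was level, at 6.86 FPKM, against 3.97 and 6.37. Of 12 endothelial genes 9 were below 1 FPKM in all 3 mock libraries. PECAM1 was at 5.18 FPKM in mock K562, against 0 and 0.407, EGFL7 at 4.08, against 0.746 and 0.175, and EMCN, which was lower, at 0, against 0 and 6.37. Of these EGFL7 was higher and EMCN lower in the PcTF set as well.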
